A study of Mus musculus with 12 samples.

Results

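Genes for ligands of the epidermal growth factor receptor (EGFR), 3 ErbB receptors and the protease that releases the ligands from the cell surface were followed. They were measured in mouse airway organoids 4.5 h after laser ablation of 10 neighboring cells per organoid. The set was fixed by gene name and holds 10 of the 55401 genes listed: the 6 ligands Hbegf, Areg, Ereg, Epgn, Tgfa and Btc, the 3 receptors Egfr, Erbb2 and Erbb3, and the protease Adam17. Organoids were grown from airway epithelial cells of adult C57BL/6J mice, and cells of both groups carried a lentiviral H2A-mCherry reporter driven by the p63 promoter. In the ablation group (n = 6 libraries), 10 cells per organoid were removed with a femtosecond laser, and control organoids (n = 6) received no laser treatment. Each library came from a dish of 45 organoids.

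The culture conditions bear on this pathway. The growth medium of both groups held recombinant mouse EGF among other supplements. In both groups it was replaced by FluoroBrite DMEM without supplements 1 h before ablation. In all 12 libraries the cells thus had no EGF added from then on, and EGF carried over was not measured. Ablation and control libraries of one number (1, 3, 4, 5, 6 and 7) carry the same date, passage and culture day in their labels and were treated as 6 pairs. Pairs 1, 3 and 5 form library set 1 and pairs 4, 6 and 7 library set 2, named after 2 runs of library numbers. The passage labels were P2+14, P2+14 and P2+15 in pairs 1, 3 and 5, and P2+15, P2+16 and P2+16 in pairs 4, 6 and 7. The culture days were 14, 20 and 15, and 14, 18 and 19. Results by library set can therefore not be fully told apart from passage. The titles of the controls of pairs 4, 6 and 7 contain the word ablation although their treatment label says control, and the treatment label was followed. Within library set 2 the direction of every difference rests on that label.

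EGFR and its relatives are receptor tyrosine kinases of the cell membrane. Their ligands are made as membrane-bound precursors that are cut by proteases such as ADAM17 and then act on the same or on neighboring cells. ERBB2 has no known ligand of its own and signals as the partner of other family members, and ERBB3, a receptor of neuregulins, has little kinase activity. In airway epithelium this pathway is known for its part in basal cell growth and in the closure of wounds.

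Total normalized counts lay between 27297950 and 28504390 per library, and the reads recovered for 9 libraries between 23631212 and 29775699. All 10 genes exceeded 10 normalized counts in all 12 libraries. Epithelial and basal cell markers were abundant in every library, with 11401 to 13854 normalized counts of Epcam and 229016 to 340094 of Krt5. The luminal and secretory markers were uneven. Krt19 had 75459 to 97456 normalized counts and the club cell marker Cyp2f2 26191 to 78597, while Scgb1a1 had at most 9.65 and Muc5ac at most 3.89. Of the multiciliated markers, Rsph1 had 99.0 to 152 normalized counts and Foxj1 at most 18.1, and the 5 markers summed to 162 to 204 in the controls and 132 to 187 after ablation. The alveolar markers Sftpc and Sftpb, the macrophage marker Adgre1 and the endothelial marker Kdr were at 0 in all libraries. Other markers of these types were above 0, with at most 12.5 normalized counts of the alveolar marker Sftpa1 and 13.3 of the endothelial marker Pecam1. The immune marker Cd68 had 88.8 to 158. The 5 immune markers summed to 104 to 175 in the controls and 121 to 157 after ablation. The summed fibroblast markers held at most 48.3 normalized counts in the controls and 42.2 after ablation.

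Levels of the genes were first compared in the controls, as normalized counts per kilobase of exon. The length was that of all annotated exons merged, from 1215 bases in Areg to 11326 in Egfr, and the order depends on it. Without this division, the control means of Ereg (1857 normalized counts) and Egfr (1958) were above that of Areg (1374). Areg, which encodes the ligand amphiregulin, had the highest mean with 1131 ± 605 (SD, n = 6) normalized counts per kb. Erbb3 followed with 870.3 ± 142, Erbb2 with 637.1 ± 66.8 and Adam17 with 507.1 ± 11.2. Areg was above Erbb3 in only 3 of the 6 controls, so the first place in this order does not exceed the spread between dishes.

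The next positions were held by Ereg, the gene of the ligand epiregulin, with 449.9 ± 195 normalized counts per kb, and Hbegf, the gene of heparin-binding EGF-like growth factor, with 226.5 ± 74.7. Egfr itself was lower, with 172.9 ± 14.1 normalized counts per kb. Tgfa (transforming growth factor alpha) had 108.6 ± 9.11, Btc (betacellulin) 72.6 ± 7.44 and Epgn (epigen) 26.1 ± 7.76. Of the 9 neighboring pairs of genes in this order, 4 had control ranges that did not overlap: Erbb2 over Adam17, Egfr over Tgfa, Tgfa over Btc and Btc over Epgn.

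Amphiregulin and epiregulin transcripts together made up most of the ligand RNA. Of the summed normalized counts per kb of the 6 ligand genes, Areg and Ereg held 73.0% to 84.1% in the controls (median 76.3%) and 70.9% to 83.9% after ablation (median 82.7%). Hbegf added 9.51% to 12.9% in the controls and 9.20% to 13.2% after ablation. These shares overlapped between the groups for all 6 ligands. Egf, the gene of the growth factor that was withdrawn from the medium, had 23.1 ± 5.46 (SD, n = 6) normalized counts in the controls and 27.8 ± 5.58 after ablation.

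**Figure D1:**
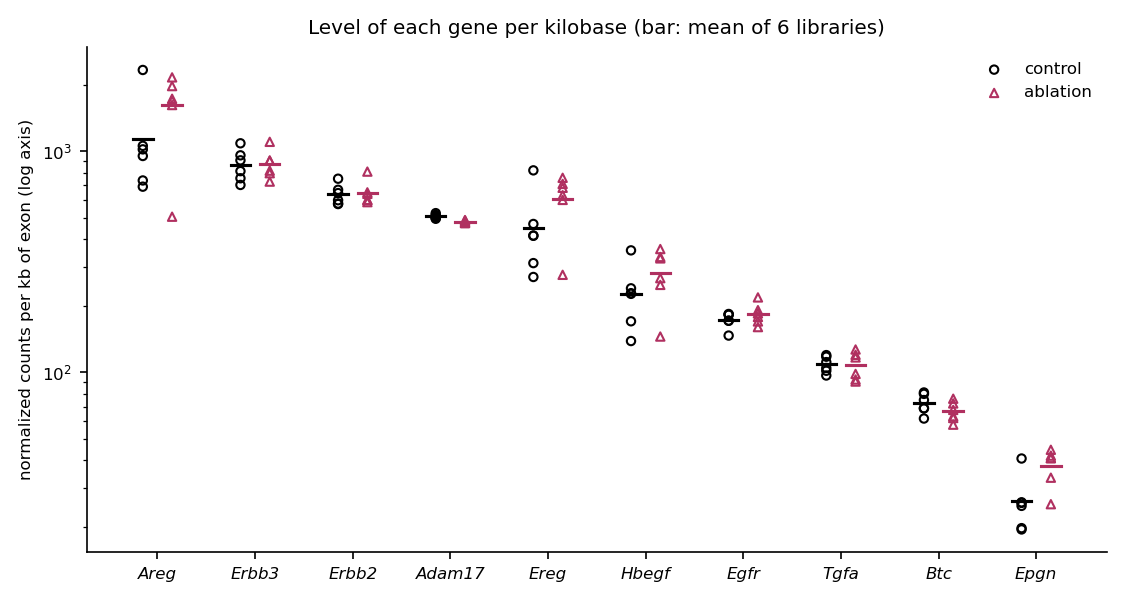
Normalized counts per kilobase of exon (log axis) of the 10 genes in the 6 control (circles) and 6 ablation libraries (triangles), with bars at the group means, ordered by the control mean. Areg, Ereg, Hbegf and Epgn are spread over more than 2-fold among the controls, while the 12 Adam17 values lie between 473 and 525.

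Control dishes differed from each other mainly in 4 ligands. The highest control exceeded the lowest 3.37-fold in Areg, 3.03-fold in Ereg, 2.57-fold in Hbegf and 2.09-fold in Epgn. A spread of at least 2-fold was found in 15.7% of the 13792 tested genes, and in none of the other 6 genes described here, whose largest ratio was 1.54 in Erbb3. By the standard deviation of the log2 values of the controls, Areg stood at percentile 96.1 of all tested genes, Ereg at 94.1, Hbegf at 90.5 and Epgn at 85.2. Adam17, with a standard deviation of 0.032, stood at percentile 0.653.

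Ablation was compared with the control by limma on log2 values (normalized count plus 1), with the library set as second factor and with p-values adjusted over all 13792 tested genes by the Benjamini-Hochberg method. This unpaired model was set beside a paired fit with the pair as a block instead of the library set. None of the 10 genes passed the adjusted threshold of 0.05 (0 genes in either model, limma). At an unadjusted p under 0.05 were 2 of them (Epgn and Adam17) without the pairing and 3 (also Hbegf) with it, against 7.85% and 17.6% of all tested genes. The background was 0.0% of all tested genes in the unpaired model (0 genes, and 1083 at an unadjusted p under 0.05) and 1.09% in the paired fit (150 genes, and 2433 at an unadjusted p under 0.05). Of calls in the paired fit there were 8 without pair 4 and 0 with limma's plain eBayes, under which 2190 had an unadjusted p under 0.05. The adjusted p-values of the 10 genes lay between 0.569 and 0.990 in the unpaired model. Of the fold changes, 7 were above 1 and 3 below, against 6689 and 7103 of all tested genes. The RNA came from whole organoids, so that fewer cells of a type and less RNA per cell cannot be told apart.

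**Figure D2:**
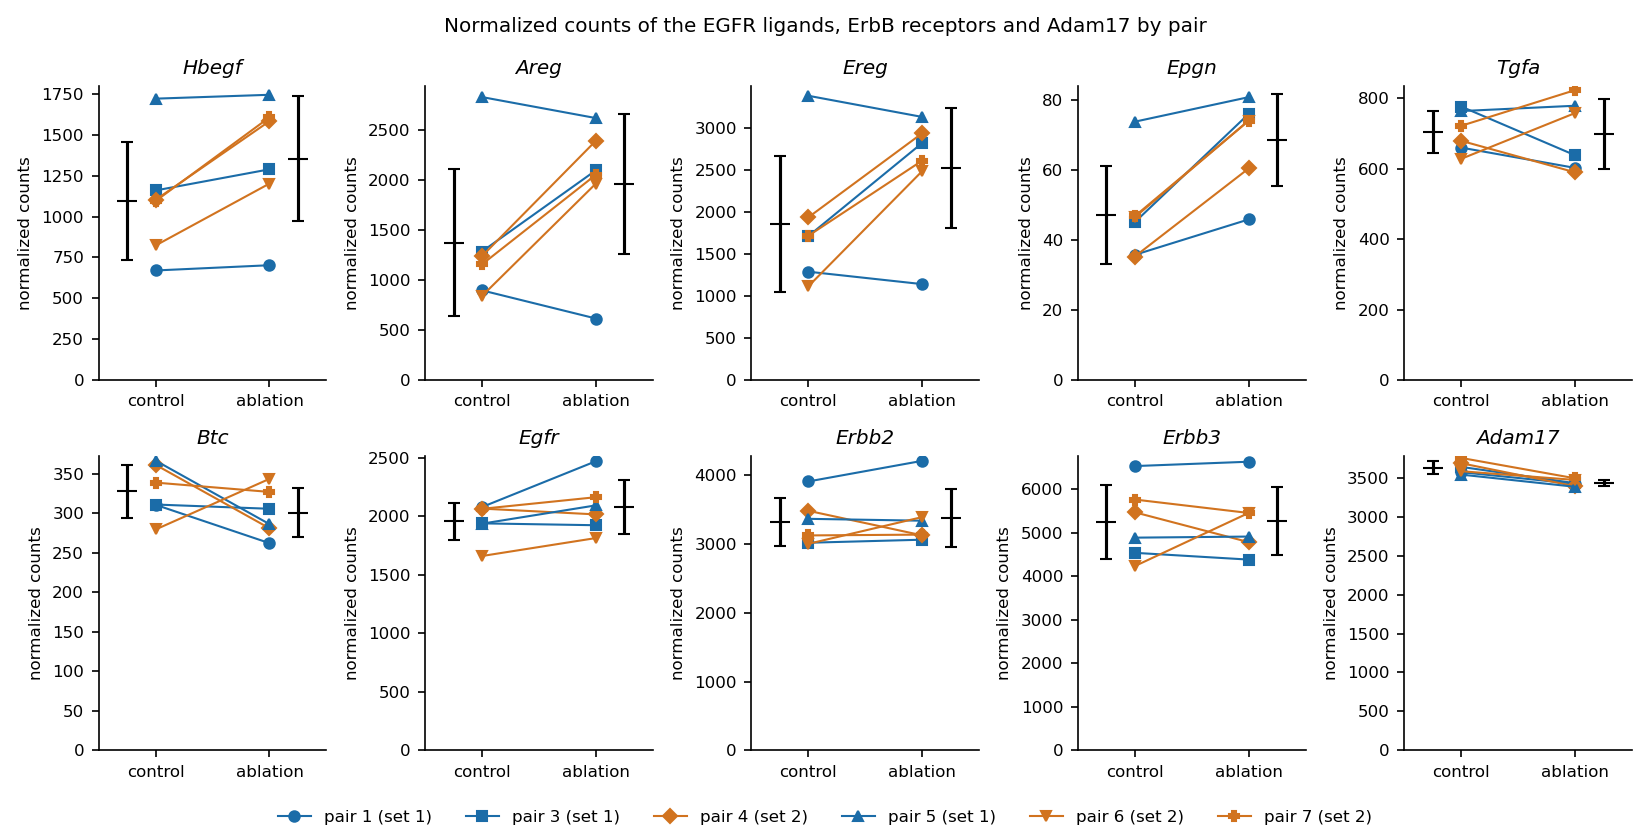
Normalized counts of the 10 genes in control and ablation libraries, with a line for each of the 6 pairs (blue, library set 1, and orange, library set 2) and the group mean ± SD in black beside them. Hbegf and Epgn lines point upward in 6 of 6 pairs, Areg and Ereg lines in 4 of 6, and Adam17 lines downward in 6 of 6.

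Hbegf (ENSMUSG00000024486.6, GRCm38.p6 chromosome 18 from 36504927 to 36515805, minus strand, 5 exons) encodes a ligand of EGFR and ERBB4 that is shed in response to cell injury. Its normalized counts ranged from 669.8 to 1721 in the controls (median 1098) and from 701.9 to 1745 after ablation (median 1436). The groups overlapped almost fully, but within pairs the ablation library was higher in 6 of 6 cases. The paired fold was 1.05, 1.11 and 1.01 in pairs 1, 3 and 5 and 1.44, 1.46 and 1.47 in pairs 4, 6 and 7.

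Over all pairs the log2 fold change of Hbegf was 0.31 ± 0.24 (SE), with an adjusted p of 0.783 in the unpaired model of limma. In the paired fit the standard error was 0.078 and the adjusted p 0.0809, with an unadjusted p of 0.0019. Being higher in all 6 pairs was shared by 5.17% of the tested genes. The difference between dishes of different pairs was thus larger than the difference within pairs, and the threshold was missed in both models.

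Epgn (ENSMUSG00000035020.11, chromosome 5 from 91027464 to 91035215, plus strand, 5 exons) encodes epigen, a ligand of low affinity for EGFR. It had 35.2 to 73.7 normalized counts in the controls (median 45.7) and 45.8 to 80.7 after ablation (median 74.0). Of the 6 ablation libraries, 4 were above all controls, and ablation was higher in 6 of 6 pairs. The log2 fold change was 0.55 ± 0.20 (SE), with an adjusted p of 0.569 in the unpaired model and 0.0688 in the paired fit. This was the largest fold change of the 10 genes (1.46-fold) and the lowest adjusted p among them in both models, and it was measured at the lowest counts.

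Areg (ENSMUSG00000029378.5, chromosome 5 from 91139599 to 91148432, plus strand, 6 exons) encodes a ligand of EGFR made by many epithelia during repair. It had 839.6 to 2829 normalized counts in the controls (median 1197) and 614.1 to 2619 after ablation (median 2074). The lowest and the highest of the 12 values were thus an ablation and a control library, respectively. The fold within pairs was 1.63 in pair 3, 1.93 in pair 4, 2.34 in pair 6 and 1.78 in pair 7, but 0.686 in pair 1 and 0.926 in pair 5. The log2 fold change over all pairs was 0.51 ± 0.36 (SE), with an adjusted p of 0.754, and a 95% interval from -0.27 to 1.29.

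Ereg (ENSMUSG00000029377.5, chromosome 5 from 91074622 to 91093646, plus strand, 5 exons) encodes a ligand of EGFR and ERBB4. It was higher and lower after ablation in the same pairs as Areg. Its normalized counts ranged from 1114 to 3380 in the controls (median 1713) and from 1140 to 3128 after ablation (median 2715). The fold was between 1.52 and 2.23 in pairs 3, 4, 6 and 7, and 0.885 and 0.926 in pairs 1 and 5. The log2 fold change was 0.47 ± 0.28 (SE), with an adjusted p of 0.712. Of its exon bases, 141 are shared with the antisense gene Gm19610, and reads of the 2 genes cannot be told apart if strand was not used in counting, which is not given in the sources used here.

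The 2 remaining ligands had fold changes just below 1, with 95% intervals that included 0 on the log2 scale. Tgfa (ENSMUSG00000029999.14, chromosome 6 from 86195223 to 86275719, plus strand, 8 exons) had 628.2 to 776.7 normalized counts in the controls and 589.8 to 823.5 after ablation, and was higher in 3 of 6 pairs. Its log2 fold change was -0.02 ± 0.095 (SE), with a 95% interval from -0.23 to 0.18 and an adjusted p of 0.973. Btc (ENSMUSG00000082361.6, chromosome 5 from 91357261 to 91402994, minus strand, 6 exons) had 279.5 to 366.6 normalized counts in the controls and 262.2 to 343.6 after ablation. It was lower in 5 of 6 pairs, and its log2 fold change was -0.12 ± 0.090 (SE), with a 95% interval from -0.32 to 0.07 and an adjusted p of 0.758.

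The receptors differed little between the groups. Egfr (ENSMUSG00000020122.16, chromosome 11 from 16752203 to 16918158, plus strand, 30 exons) had 1661 to 2080 normalized counts in the controls and 1815 to 2471 after ablation, with a log2 fold change of 0.08 and a 95% interval from -0.08 to 0.25. For Erbb2 (ENSMUSG00000062312.5, chromosome 11 from 98412470 to 98437716, plus strand, 26 exons) the values were 3005 to 3911 and 3064 to 4211, the log2 fold change 0.02 and its interval -0.15 to 0.20. For Erbb3 (ENSMUSG00000018166.8, chromosome 10 from 128567523 to 128589652, minus strand, 28 exons) they were 4232 to 6530 and 4382 to 6630, the log2 fold change 0.01 and its interval -0.24 to 0.26. All 3 ranges overlapped between the groups. The paired fit narrowed the intervals to between -0.01 and 0.18 for Egfr, -0.07 and 0.12 for Erbb2, and -0.12 and 0.14 for Erbb3.

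Adam17 (ENSMUSG00000052593.16, chromosome 12 from 21323509 to 21373632, minus strand, 20 exons) encodes the main sheddase of several of these ligands. It was the only one of the 10 genes whose groups did not overlap, with 3539 to 3753 normalized counts in the controls (median 3610) and 3383 to 3492 after ablation (median 3425). Such a separation was found in 0.457% of all tested genes, and in 0.21% with the ablation group lower. Being lower in 6 of 6 pairs, as Adam17 was, was shared by 4.63% of the tested genes. The size was small, a log2 fold change of -0.08 ± 0.034 (SE), or a percent change of -5.42%. The unadjusted p was 0.0343 and the adjusted p 0.619 in the unpaired model, and the adjusted p was 0.238 in the paired fit. The exons of Adam17 share 311 bases with the gene Iah1 on the other strand.

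**Figure D3:**
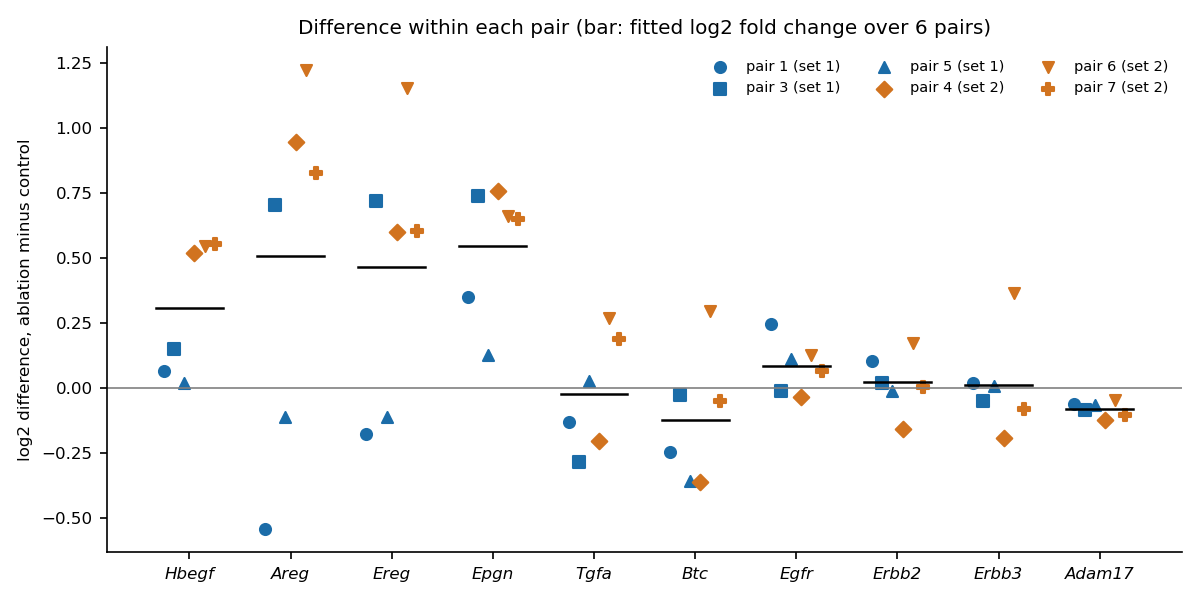
Log2 difference, ablation minus control, within each of the 6 pairs (points, blue for library set 1 and orange for library set 2), and the fitted log2 fold change (bar) for the 10 genes. Areg and Ereg are below 0 in pairs 1 and 5 and between 0.60 and 1.23 in the other 4 pairs, and Adam17 lies between -0.12 and -0.05 in all pairs.

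The library sets were then fitted apart, each with the pair as a block. In library set 2, 3 of the 10 genes passed the adjusted threshold, against 0.79% of the tested genes (109 genes), or 0.544% with only those higher after ablation counted. Hbegf rose 1.45-fold (log2 fold change 0.54 ± 0.063 SE, adjusted p = 0.00841, limma), Areg 2.00-fold (1.00 ± 0.079, adjusted p = 0.000708) and Ereg 1.73-fold (0.79 ± 0.105, adjusted p = 0.0187). Epgn had a log2 fold change of 0.69 ± 0.18 there, with an adjusted p of 0.128. Each fit of a library set rests on 3 pairs, with standard errors that limma draws toward those of other genes. In pairs 4, 6 and 7 the log2 differences were 0.95, 1.22 and 0.83 for Areg, and 0.60, 1.16 and 0.61 for Ereg. Plain eBayes, which left 0 calls in the paired fit over 6 pairs, was not run on a library set alone. In library set 1, 0 of the 10 genes passed, against 0.116% of the tested genes (16 genes, limma), and 1915 genes had an unadjusted p under 0.05. The log2 fold changes there were 0.08 ± 0.061 for Hbegf, 0.02 ± 0.29 for Areg, 0.14 ± 0.23 for Ereg and 0.41 ± 0.20 for Epgn.

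The difference between the library sets was tested as an interaction. In the unpaired model 0 of the 10 genes passed, with 0.0% of the tested genes (0 genes, and 231 at an unadjusted p under 0.05). With the pair as a block, which called 0.00725% of the tested genes (1 gene, the lactate transporter gene Slc16a3, named after its value was seen), the difference of the log2 fold changes was 0.46 ± 0.083 (SE) for Hbegf (unadjusted p = 9.7e-05, adjusted p = 0.222), 0.98 ± 0.34 for Areg (unadjusted p = 0.032, adjusted p = 0.609) and 0.64 ± 0.30 for Ereg (adjusted p = 0.668). A different response of these genes in the 2 library sets was therefore not shown after adjustment. In Areg and Ereg, pair 3 of library set 1 lay with the pairs of library set 2, and in Hbegf it lay with pairs 1 and 5.

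**Figure D4:**
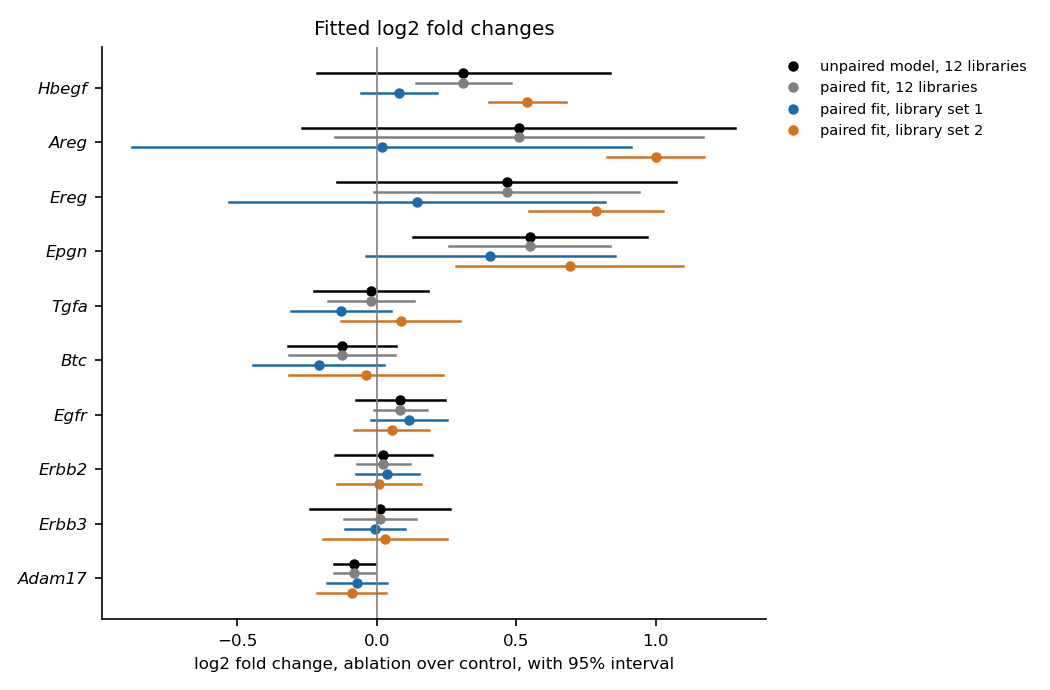
Fitted log2 fold changes (points) with 95% intervals (lines) of the 10 genes, from the unpaired model (black), the paired fit (grey), and the paired fit in library set 1 (blue) and library set 2 (orange). In library set 2 the intervals of Hbegf, Areg, Ereg and Epgn lie above 0, and in library set 1 they include 0.

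Of the 6 ligand genes, 4 lie beside each other. Epgn, Ereg, Areg and Btc are the only 4 protein-coding genes of the 7 genes annotated in a stretch of 375.5 kb on chromosome 5, from 91027464 to 91402994 (GRCm38.p6). The 3 on the plus strand, Epgn, Ereg and Areg, had log2 fold changes between 0.47 and 0.55 over all pairs, and Btc, on the minus strand at the far end, had -0.12. Hbegf, on chromosome 18, followed the levels of Areg and Ereg from dish to dish although it lies outside this stretch.

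Across the 12 libraries, the tested gene whose log2 values were most like those of Areg was Ereg, with a Pearson r of 0.984 among 13791 other tested genes. Next came Plaur, the urokinase receptor gene (r = 0.983), and Epha2, an ephrin receptor gene (r = 0.977). For Ereg the order was Areg, Epha2 (r = 0.974) and Plaur (r = 0.963). The nearest genes of Hbegf were Stra6, a retinol transporter gene (r = 0.973), Epha2 (r = 0.964) and Areg (r = 0.946), with Ereg at the sixth place (r = 0.941). These values describe the same 12 libraries, which share their culture days and library sets, and carry no test.

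Epgn was less like Areg, Ereg and Hbegf than these were like each other, with r = 0.812 to Areg and 0.768 to Hbegf. Tgfa (r = 0.461 to Areg and 0.523 to Hbegf) and Btc (r = 0.358 and 0.325) were less like them than Epgn was. Epgn was nearest to Slc2a6, a glucose transporter gene (r = 0.958), Zfp263 (r = 0.931) and Ppp1r15b (r = 0.914). Tgfa was nearest to Aqp5 (r = 0.869), Igsf8 (r = 0.863) and Phlpp1 (r = 0.861), and Btc to Vasn (r = 0.893), Slc26a9 (r = 0.893) and Irgm2 (r = 0.834). Among the receptors, Erbb2 and Erbb3 resembled each other most (r = 0.835). Erbb2 was nearest to Helz (r = 0.965), Osbpl5 (r = 0.954) and Arhgap32 (r = 0.953), Erbb3 to Tspyl1 (r = 0.955), Tcp11l2 (r = 0.948) and Krt33b (r = 0.935), and Egfr to Nrbp1 (r = 0.917), Lrrk1 (r = 0.907) and Gnai1 (r = 0.874). Adam17 was nearest to Mthfd2l (r = 0.894), Nucb2 (r = 0.882) and Tmem40 (r = 0.858). Receptors and the ligands Areg, Ereg and Hbegf had r values below 0, from -0.55 for Erbb2 with Hbegf to -0.09 for Egfr with Ereg.

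**Figure D5:**
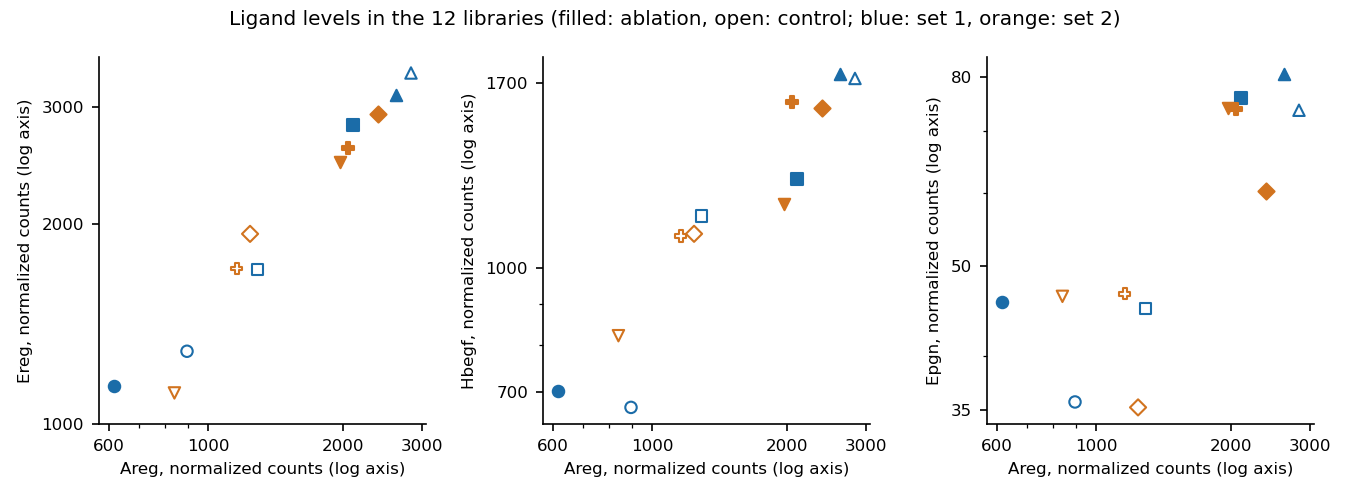
Normalized counts of Ereg, Hbegf and Epgn against those of Areg in the 12 libraries (log axes), with filled symbols for ablation, open symbols for control, blue for library set 1, orange for library set 2, and 1 symbol shape per pair. Both libraries of pair 1 lie at low Areg, Ereg and Hbegf values and both of pair 5 at the highest.

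The promoter of Areg is shown because this gene had the widest range of the 10 and doubled in library set 2. Of the 10 genes, 7 were in the RefSeq promoter table used here, and Hbegf, Ereg and Erbb3 were not. The 250 bases before the start of Areg (GRCm38.p6, chr5:91139349-91139598, plus strand, RefSeq) hold the cyclic AMP response element TGACGTCA at position -61 and the letters TATAAA at position -31, counted back from the start and printed in capitals.
Areg: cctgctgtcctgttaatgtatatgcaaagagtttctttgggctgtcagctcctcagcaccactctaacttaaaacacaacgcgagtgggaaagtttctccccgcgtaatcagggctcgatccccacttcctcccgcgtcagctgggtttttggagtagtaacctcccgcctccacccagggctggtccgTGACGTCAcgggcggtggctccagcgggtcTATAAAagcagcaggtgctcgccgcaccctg
Both strands were searched in 32851 promoters of this length. TGACGTCA was found in 1.55% of them and TATAAA in 12.4%, and the AP-1 letters TGANTCA, which the Areg window does not hold, in 6.75%. None of the other 6 promoters held TGACGTCA or TGANTCA, and Epgn held TATAAA at position -86. A match of letters is a description and does not show that a factor binds there.

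Other genes of the pathway were taken from 5 fixed lists and set beside the median log2 fold change of all tested genes, -0.0036. Of all 13792 tested genes, 6689 were above 0 and 7103 below. Of the other ErbB ligands and the receptor Erbb4, 4 of 6 genes were tested and 0 passed in either model, with a median of 0.23. The largest difference was that of the neuregulin gene Nrg2 (0.27, adjusted p = 0.754). Nrg1, a ligand of ERBB3, had 2023 ± 672 (SD, n = 6) normalized counts in the controls and 1981 ± 815 after ablation, and Nrg3 was at 0 in all libraries.

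Of the genes for ligand shedding and trafficking, 11 of 12 were tested and 0 passed in either model, with 2 above and 9 below 0 and a median of -0.02. The largest difference was that of the metalloprotease gene Adam12 (-0.43 ± 0.57 SE, adjusted p = 0.876). Rhbdf1 and Rhbdf2, which encode the iRhom partners of ADAM17, had log2 fold changes of -0.02 each. All 24 genes of the adaptors and core cascade were tested and 0 passed in either model, with a median of -0.01. Their largest difference was that of the phosphatase gene Ptpn11 (-0.09).

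Genes that limit the pathway were grouped by where they act. Of the 14 genes of receptor attenuation, 0 passed in either model, with a median of 0.03. The largest difference was that of Lrig2 (0.19), for which the paired fit gave an adjusted p of 0.0846 and each of the 6 pairs a higher ablation library. Of the 16 genes of ERK feedback and early response, 0 passed without the pairing and 2 rose in the paired fit, in which 0.674% of all tested genes rose. More of these 16 genes passed in library set 2 alone, and their number is given with the alternatives at the end. Above 0 were 13 of the 16, with a median of 0.22, against 6689 of all 13792 tested genes.

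The 2 genes were Dusp4, which encodes a phosphatase of ERK (0.34, adjusted p = 0.0244 in the paired fit and 0.788 in the unpaired model), and Ier3, an early response gene (0.33, adjusted p = 0.0127 and 0.690). Both were higher in 6 of 6 pairs. Without pair 4 neither passed in the paired fit (adjusted p = 0.111 for Dusp4 and 0.069 for Ier3), and without pair 5, 6 or 7 only Ier3 did. With plain eBayes in the paired fit, 0 of the 16 genes passed (limma). The largest difference of this list was that of Fosl1, which encodes an AP-1 subunit (0.57 ± 0.42 SE, adjusted p = 0.768).

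Basal cell markers were compared beside the ligands. Trp63, the gene of a basal cell transcription factor, had a log2 fold change of 0.39. The adjusted p was 0.187 without and 0.00825 with the pairing, and 0.0541 in the paired fit without pair 4. With plain eBayes Trp63 did not pass in the paired fit. The summed basal markers held 583551 to 731933 normalized counts in the controls and 576346 to 752865 after ablation, and of the 9 markers 4 were above 0 and 5 below. The part of cell type shares in the ligand values was not tested.

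Culture day was the last comparison, made between the 3 controls of day 18 to 20 and the 3 controls of day 14 to 15. None of the 10 genes passed (adjusted p from 0.976 to 0.997, limma), with 0.0% of all tested genes (0 genes, and 655 at an unadjusted p under 0.05). Erbb2 had 3005 to 3127 normalized counts in the late controls and 3368 to 3911 in the early ones, a log2 difference of -0.23 ± 0.076 (SE) with an unadjusted p of 0.0155. In the ablation libraries the same comparison of Erbb2 gave -0.14 ± 0.12, and the ranges overlapped. Areg was lower in the late controls (log2 difference -0.44 ± 0.38 SE) and higher in the late ablation libraries (0.38 ± 0.52), and neither difference exceeded the spread between dishes.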

How the data were processed

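RNA of 12 libraries was sequenced by the authors as stranded poly(A) libraries in paired-end reads, processed with nf-core/rnaseq on the GENCODE annotation of GRCm38.p6, and analysed with DESeq2. Whether strand was used in counting is not given in the sources used here. The deposited signal values are normalized counts, for which the authors scaled each library by its own DESeq2 size factor. A further deposited column of another kind holds the exon length of each gene and was used for levels per kilobase. The authors' own test columns (base mean, log2 fold change, standard error, Wald statistic and p-values) were not used.

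Samples were grouped by their treatment label. The batch of the authors' model is not described, and the library set was used in its place. A gene was tested if 6 or more libraries held 10 or more normalized counts of it (13792 of 28534 genes with any count), with limma 3.58.1 in R 4.3.3 on log2(normalized count + 1), eBayes with trend and robust estimation, and Benjamini-Hochberg adjustment. A fold change on this scale understates the change of low genes. Deviations of same-numbered libraries from their group means correlated across genes with r = 0.62, 0.49, 0.21, 0.32, 0.38 and 0.33 for pairs 1, 3, 4, 5, 6 and 7, so the pairing given by the shared dates was used as a replicate block in the paired fit, while the unpaired model held the library set. Whether the libraries of a group came from separate animals is not given, so p-values measure the spread between these dishes.

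Whole reads were recovered for 9 libraries, for which edgeR 4.0.16 (0 genes called) and DESeq2 1.42.0 (11 genes) were run as alternatives. In the other 3 (ablation 3, ablation 4 and control 4) the value of 1 read was too near to 1 to be accepted. These alternatives thus lacked both libraries of pair 4 and 1 of pair 3. On the same 9 libraries limma called 0 genes. The models were tested on simulated data. The simulated spread between pairs was smaller than that of Areg, Ereg, Hbegf, Epgn and Erbb3 (SD of the log2 pair means 0.61, 0.48, 0.46, 0.32 and 0.20). The simulation therefore does not show how well changes of these genes would be found. All 10 genes, the pathway genes passing either model or with the largest change of their list, and the 3 genes most like each of the 10 were named. Genes and lists were chosen with earlier results of these data known. Genes named as markers or for their level were added after their values were seen.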

Additional observations from a re-analysis of the deposited data

Results flagged for a closer look

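In each group of 6 libraries, the gap of the highest or the lowest library to its nearest neighbor was divided by the range of the group. Of 20 groups examined (10 genes in 2 conditions), 7 had a library farther from the others than the 95% limit of this ratio (0.625), where chance gives about 1 in 20. Control 5 was highest of the controls in Areg (2829 normalized counts, ratio 0.776), Ereg (3380, ratio 0.638) and Epgn (73.7, ratio 0.701). Ablation 1 was lowest of the ablation libraries in Areg (614.1, ratio 0.673) and Ereg (1140, ratio 0.677), and highest in Erbb2 (4211, ratio 0.713). Control 6 was lowest of the controls in Egfr (1661, ratio 0.660). These flags are not independent, since Areg, Ereg and Epgn vary together. Without pair 1 the log2 fold change of Areg was 0.72 in place of 0.51, and without it none of the 10 genes passed the threshold in either model. The part of these libraries in the spread was not tested further.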

How the results depend on the processing

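The ablation comparison called 0 genes in the unpaired model and 3 without a filter on low counts (Arrdc3, Tenm4 and Osgin1, named after their values were seen). It called 11 with DESeq2 on the recovered reads of 9 libraries and 150 with the replicate block on all 12. With the block, leaving out 1 pair gave 8 (without pair 4) to 176 genes (without pair 1), with 90, 77, 106 and 140 without pairs 3, 5, 6 and 7, and the ERK feedback list had 0 to 2 calls. Among alternatives chosen after seeing the data, the block gave 0 genes with plain eBayes, 168 with quantile normalization and 356 with no filter, where Hbegf passed (1 of the 10 genes, adjusted p = 0.0235). Library sets alone gave 16 and 109 genes, with 7 calls of the ERK feedback list and 3 of the 10 genes in set 2. In set 2, 0.79% of all tested genes passed, and the interaction gave 1 gene with the block. The list had 2 calls with the block, with no filter or quantile normalization as well. With the filter on low counts, the block changed the call of none of the 10 genes over the 6 pairs.

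Hbegf, Areg, Ereg, Epgn, Egfr, Btc and Adam17 kept their direction in all 28 alternatives of the ablation comparison. Tgfa reversed without replicate 1, 3 or 4, in both models (0.000525, 0.031 and 0.015, with a range from -0.080 to 0.031 over all 6 pairs left out), in set 2 (0.086), and on the 9 libraries of recovered reads (0.054 with edgeR, 0.059 with DESeq2, 0.053 with limma). Erbb2 (-0.0070) and Erbb3 (-0.059) reversed without pair 6 in both models, and Erbb3 in set 1 (-0.0070). Late against early culture day reversed in the ablation libraries for Hbegf (0.12), Areg (0.38), Ereg (0.27) and Btc (0.23). With each control left out in turn it ranged through 0 for Hbegf (-0.44 to 0.24), Areg (-0.80 to 0.031), Epgn (-0.15 to 0.37) and Tgfa (-0.055 to 0.098). The cause of these changes was not tested. DESeq2 gave no adjusted p for Epgn. None of the 10 genes was under the count minimum, so the tests planned for that case were not run. At 35.2 to 80.7 normalized counts, Epgn had the least depth.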
